A study of Mus musculus with 12 samples.

Results

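The genes described here carry out and control the synthesis of cholesterol and fatty acids under the SREBP transcription factors. They were taken by name as a list of 34 symbols out of 16482 genes with a usable symbol: 8 enzymes of the mevalonate route, 11 enzymes that turn its product into cholesterol, 6 regulators and transporters of sterols, and 9 enzymes of fatty acid synthesis, elongation and desaturation. Of the 34, 33 had an entry in the count table and 32 had enough counts to be tested. Idi1, an isomerase of the mevalonate route, was not analysed here. Fdft1, which encodes squalene synthase, had a total of 14 counts over the CBE+GZ-667161 samples, 3 over the CBE samples and 24 over the PBS samples and stayed under the filter on low counts.

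The samples were 12 RNA preparations of whole C57BL/6 mouse brain, sequenced from the 3′ ends of transcripts by a bulk form of MARS-seq. In 4 samples the mice had received conduritol B epoxide (CBE) together with GZ-667161 and were 40 days old, in 4 they had received CBE alone, and in 4 they had received phosphate-buffered saline (PBS) and were 40 days old. Of the CBE mice, replicates 2 and 3 were taken at day 34 and replicates 4 and 6 at day 40, so age and treatment are partly confounded. CBE blocks the lysosomal enzyme that breaks down glucosylceramide and is used as a chemical model of neuronopathic Gaucher disease, while GZ-667161 inhibits the synthase that makes this lipid. No group received GZ-667161 without CBE, and the doses and the first day of injection are not given in the sources used here. Each CBE value below is listed in the order of replicates 2, 3, 4 and 6, and each CBE+GZ-667161 or PBS value in the order of replicates 2, 3, 4 and 5.

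SREBP proteins are made as precursors in the membrane of the endoplasmic reticulum, where the escort protein encoded by Scap holds them and the proteins encoded by Insig1 and Insig2 retain the pair while sterols are plentiful. When sterols run low, the pair moves to the Golgi, proteases free the transcription factor, and it enters the nucleus and switches on the enzymes of sterol and fatty acid synthesis, Srebf2 and Insig1 among its targets. The product of Srebf2 acts mainly on sterol genes, and that of Srebf1 mainly on fatty acid genes. The brain makes its own cholesterol, since lipoproteins do not cross the blood-brain barrier, and in young animals much of it goes into myelin.

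SREBP factors bind sterol regulatory elements together with factors that bind CCAAT and GC boxes nearby, so the 200 bases before the start of 4 genes are shown, namely the 3 mevalonate and sterol genes that were lower in CBE and whose 200 bases lie outside their own GENCODE annotation, and Srebf1, the member that was higher. The sequences are from RefSeq (GRCm38.p6) and run 5′ to 3′ on the strand of the gene. None overlaps an exon annotated in GENCODE, and that of Mvd lies inside Gm20388, a gene annotated across it. For Srebf1 only the most upstream RefSeq start is shown. The 200 bases before its other starts lie inside the gene, with 0 CCAAT matches (chr11:60220628-60220827) and 1 (chr11:60210472-60210671). Counts at the 3′ end do not tell which start was used. Capitals mark CCAAT on either strand (read as CCAAT or ATTGG) and, in Hmgcs1, the sterol element core TCACNCCAC.
Hmgcs1 (chr13:119690151-119690350, plus strand): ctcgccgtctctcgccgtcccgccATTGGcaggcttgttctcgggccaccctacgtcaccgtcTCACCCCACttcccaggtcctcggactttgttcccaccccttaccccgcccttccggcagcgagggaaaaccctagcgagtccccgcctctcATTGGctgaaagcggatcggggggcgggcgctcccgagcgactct
Mvd (chr8:122443423-122443622, minus strand): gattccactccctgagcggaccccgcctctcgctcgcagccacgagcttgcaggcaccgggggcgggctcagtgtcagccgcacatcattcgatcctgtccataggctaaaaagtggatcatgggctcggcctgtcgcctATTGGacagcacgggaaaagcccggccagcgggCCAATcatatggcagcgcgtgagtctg
Sc5d (chr9:42264301-42264500, minus strand): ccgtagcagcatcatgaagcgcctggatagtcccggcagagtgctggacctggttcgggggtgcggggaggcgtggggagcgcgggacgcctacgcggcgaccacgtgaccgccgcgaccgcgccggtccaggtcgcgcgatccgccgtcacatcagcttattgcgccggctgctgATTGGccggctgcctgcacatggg
Srebf1 (chr11:60222582-60222781, minus strand): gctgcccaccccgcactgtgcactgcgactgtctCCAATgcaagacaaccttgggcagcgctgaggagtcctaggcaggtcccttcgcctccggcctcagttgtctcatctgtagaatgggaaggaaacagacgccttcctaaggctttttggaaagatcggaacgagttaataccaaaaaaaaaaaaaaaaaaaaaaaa
The letters CCAAT, on either strand, were in a promoter window (250 bases before to 50 after the start) of 21 of the 26 members with a window in the RefSeq table, against 41.1% of 27025 genes. They were in the windows of 9 of the 9 members with a window that were lower in CBE and of 12 of the other 17. GC boxes with the letters GGGCGG, on either strand, also stood in 21 of 26 members, against 38.2% of all genes. Their split was the same as that of CCAAT, with 9 of the 9 lower members and 12 of the other 17. The shares of all genes cover every gene with a window, whether or not it is expressed in brain. The sterol element core TCACNCCAC was in the window of Hmgcs1 and of no other member, against 1.44% of all genes. None of these motifs contains another, and a match describes letters and not binding.

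The samples held between 1758446 and 6521257 counts, and totals were lowest in the 2 CBE samples of day 34. Xist lay at or under 0.555 CPM (counts scaled to the TMM library size, as edgeR gives them) in 7 samples, among them all 4 CBE samples, and between 7.96 and 25.7 CPM in the other 5, so the sexes were not balanced. The labels do not say that the samples came from separate mice, so the tests compare groups against the spread among libraries, which may be technical. In whole tissue, fewer cells of a type and less RNA per cell cannot be told apart. In every CBE and CBE+GZ-667161 sample, summed microglia markers lay above, and summed neuron markers below, all PBS samples. Sums of mature oligodendrocyte and astrocyte markers overlapped between the groups. The summed level of 14 mature oligodendrocyte markers was 2393 to 5046 CPM in CBE+GZ-667161, 1886 to 3732 CPM in CBE and 3426 to 4484 CPM in PBS. For 9 microglia markers it was 1371 to 2477 CPM in CBE+GZ-667161, 2244 to 3511 CPM in CBE and 648 to 732 CPM in PBS, for 10 neuron markers 4862 to 5887, 4229 to 5375 and 5962 to 6236 CPM in the same groups, and for 10 astrocyte markers 5178 to 5536, 5509 to 6191 and 4984 to 5953 CPM.

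CBE was set against PBS to ask which members differ in the brains of mice given the inhibitor. Genes for enzymes early and late in cholesterol synthesis fell in CBE, as did the gene of the factor that drives them, Srebf2, and the genes Insig1 and Stard4, while Srebf1 rose. Of 32 members tested, 14 fell and 1 rose (edgeR quasi-likelihood test with Benjamini-Hochberg adjustment over 12623 genes, threshold 0.05). Among all genes tested, 4.04% were called lower and 6.95% higher. The list was chosen with earlier results of these data known, so the members' count is not independent of the data. The median log2 fold change was -0.36 over the members and -0.01 over all genes. In 16 of the 32 members every CBE sample lay below every PBS sample, as did 7.00% of all genes, and 13 of the 16 were among the 14 called.

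The first group of enzymes joins acetyl units into the isoprenoid building block. Of 7 mevalonate genes tested, 3 fell (Hmgcs1, Mvd and Fdps) and none rose, and their median log2 fold change was -0.36 over all 7. Hmgcs1, which encodes the synthase of HMG-CoA (mm10 chromosome 13, 119690379 to 119708260), had 158, 172, 128 and 126 CPM in CBE samples, against 249.8, 334, 321 and 329 CPM in PBS samples. The groups did not overlap, the day 40 pair was the lowest, and the log2 fold change was -1.08 ± 0.15 (SE, n = 4 and 4; edgeR adjusted p = 0.00011). Mvd, which encodes the decarboxylase that makes isopentenyl diphosphate (chromosome 8, 122433601 to 122443422), had 17.8, 14.4, 13.0 and 15.6 CPM in CBE, against 28.8, 29.8, 27.2 and 26.6 CPM in PBS. Again the groups stood apart, with a log2 fold change of -0.89 ± 0.21 (edgeR adjusted p = 0.01). The 3′ end of Mvd lies inside Gm20388, a gene annotated on the opposite strand. Fdps, which encodes the synthase of farnesyl diphosphate, the last step shared with other isoprenoids (chromosome 3, 89093588 to 89101959), had 67.4, 68.3, 49.0 and 43.7 CPM in CBE, against 79.4, 104, 108 and 103 CPM in PBS. Every CBE sample was lower, by -0.80 ± 0.16 on the log2 scale (edgeR adjusted p = 0.0036). The 3′ end of Fdps lies inside Gm43738, a gene annotated on the same strand, so reads there cannot be assigned by strand.

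The other mevalonate genes did not pass. Pmvk, which encodes the second kinase of the route, lay at 50.3 to 65.5 CPM in CBE and 71.6 to 81.8 CPM in PBS, with no overlap and a log2 fold change of -0.36 ± 0.12 (edgeR adjusted p = 0.065). Mvk, the first kinase, stood at -0.36 ± 0.16 (edgeR adjusted p = 0.16). Ggps1, whose product diverts farnesyl units to geranylgeranyl diphosphate, stood at -0.30 ± 0.21 and Acat2, the cytosolic thiolase that starts the route, at -0.19 ± 0.19 (edgeR adjusted p = 0.41 and 0.57), both with overlapping groups.

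Of 10 sterol enzymes tested, 5 fell (Sqle, Cyp51, Msmo1, Sc5d and Dhcr7) and none rose, and the median of the 10 log2 fold changes was -0.46. Msmo1, which encodes the oxidase that removes methyl groups at carbon 4 of the sterol ring (chromosome 8, 64718139 to 64733792), had 11.3, 26.1, 15.1 and 9.27 CPM in CBE, against 32.0, 38.9, 39.8 and 34.8 CPM in PBS. All 4 CBE samples were lower, with day 34 replicate 3 nearest to PBS, and the log2 fold change was -1.27 ± 0.26 (edgeR adjusted p = 0.0037). Sc5d, which encodes the desaturase near the end of the pathway (chromosome 9, 42251595 to 42264256), had 21.6, 22.8, 8.75 and 16.2 CPM in CBE, against 35.7, 41.5, 37.3 and 39.4 CPM in PBS. The groups were apart, with the day 40 samples lowest, and the log2 fold change was -1.19 ± 0.22 (edgeR adjusted p = 0.0018).

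Cyp51, which encodes the lanosterol demethylase (chromosome 5, 4081145 to 4104746), had 9.16, 11.7, 4.90 and 10.9 CPM in CBE, against 16.9, 16.4, 17.2 and 35.7 CPM in PBS. The groups did not overlap, but PBS replicate 5 stood far above the other PBS samples. The log2 fold change was -1.27 ± 0.32 (edgeR adjusted p = 0.015), and it was -0.89 without PBS replicate 5 (edgeR adjusted p = 0.06) and -1.04 without CBE replicate 4 (edgeR adjusted p = 0.057). The 3′ end of Cyp51 overlaps that of Akap9 on the opposite strand, whose log2 fold change was -0.89 ± 0.48 (edgeR adjusted p = 0.27), and reads of the pair cannot be told apart if counting ignored the strand.

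Sqle encodes squalene epoxidase, one of the steps that limit the rate of sterol synthesis (chromosome 15, 59315077 to 59331192). It lay at 14.7 to 25.0 CPM in CBE and 24.3 to 36.4 CPM in PBS, the only called member whose groups overlapped, with a log2 fold change of -0.72 ± 0.20 (edgeR adjusted p = 0.03). Its adjusted p was 0.065 to 0.12 in edgeR without PBS replicate 2, 3 or 5 or CBE replicate 4 or 6. Dhcr7 encodes the reductase that yields cholesterol (chromosome 7, 143823145 to 143848410) and lay at 14.0 to 22.1 CPM in CBE and 24.3 to 31.7 CPM in PBS. Its log2 fold change was -0.56 ± 0.17 at an edgeR adjusted p of 0.048, and it passed without CBE replicate 2 but without no other library (edgeR adjusted p = 0.054 to 0.16).

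Not all sterol steps were lower in CBE. Lss, which encodes the cyclase that closes the first sterol ring, had 16.2, 15.6, 29.1 and 29.1 CPM in CBE, against 17.5, 20.0, 14.7 and 16.9 CPM in PBS, and is singled out after its values were seen. The day 34 pair lay inside the PBS range and the day 40 pair above it, and over all 4 samples the log2 fold change was 0.40 ± 0.23 (edgeR adjusted p = 0.3). An antisense gene lies across the 3′ end of Lss. Tm7sf2 and Ebp, which encode a reductase and an isomerase of the sterol ring, stood at 0.13 ± 0.18 and 0.16 ± 0.17 (edgeR adjusted p = 0.7 and 0.63). Nsdhl and Hsd17b7, the dehydrogenase and reductase that work with Msmo1, stood at -0.32 ± 0.24 and -0.36 ± 0.28 (edgeR adjusted p = 0.44 and 0.47).

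**Figure D1:**
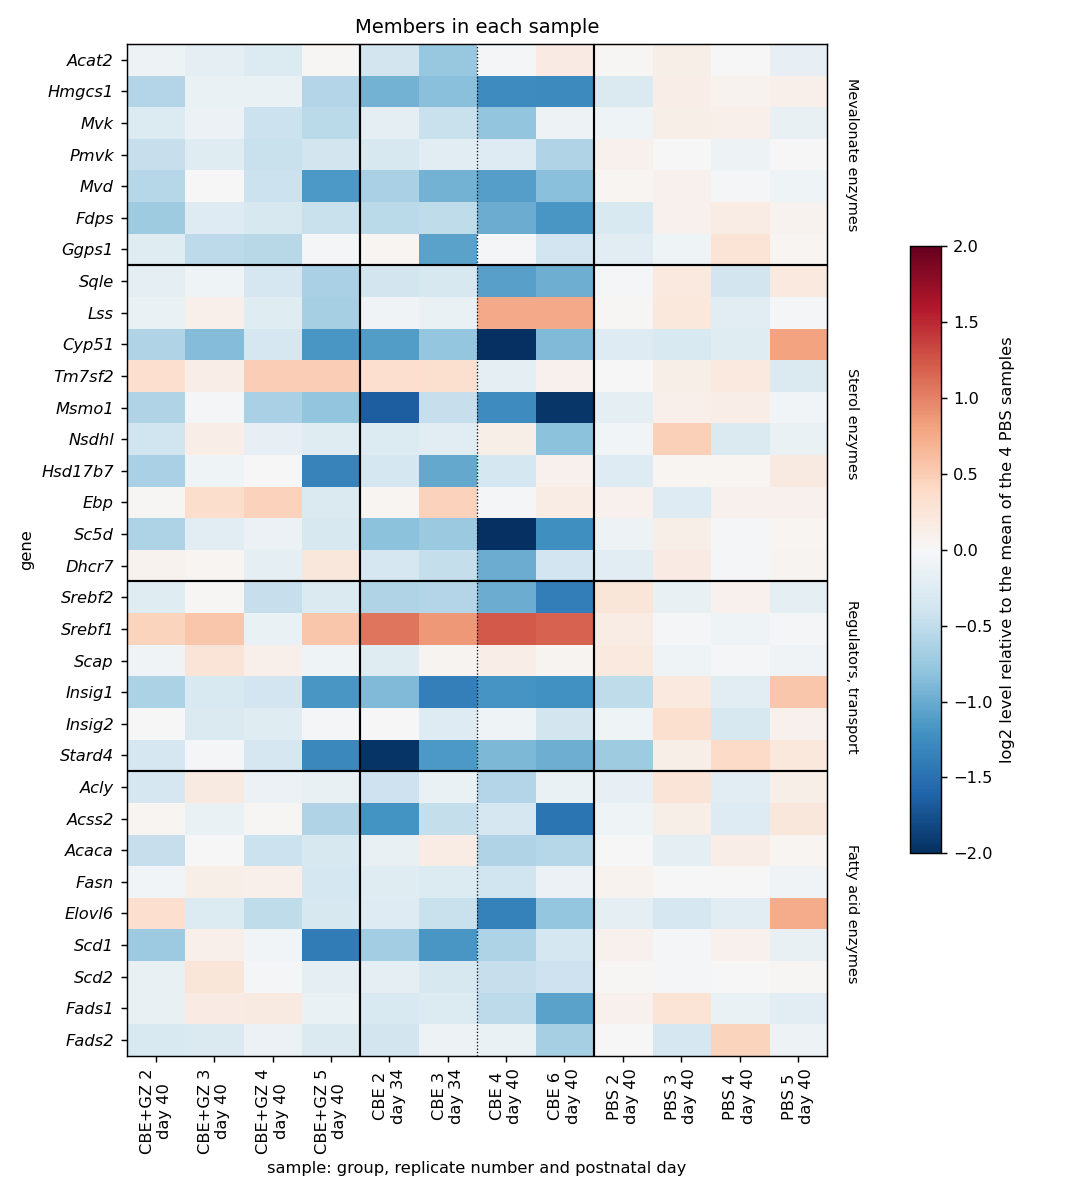
Level of each of the 32 tested members (rows, grouped by role and ordered by step) in each of the 12 samples (columns), as log2 relative to the mean of the 4 PBS samples, with CBE+GZ short for CBE+GZ-667161 and values past the scale drawn in its end colour. The CBE columns are blue for most sterol genes, Srebf1 is red in all 4 CBE columns, and Lss is reddest in the 2 day 40 CBE columns, at 29.1 CPM each.

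The genes for the 2 SREBP precursors differed in opposite directions. Srebf2 (chromosome 15, 82147181 to 82205379) had 149.8, 151, 114 and 86.4 CPM in CBE, against 269, 204, 240.4 and 199.7 CPM in PBS. No CBE sample reached the PBS range, the day 40 pair was the lowest, and the log2 fold change was -0.87 ± 0.17 (edgeR adjusted p = 0.0025). Srebf1 (chromosome 11, 60199089 to 60222581) had 99.2, 86.1, 110.3 and 107 CPM in CBE, against 52.1, 46.6, 44.4 and 45.8 CPM in PBS. Every CBE sample was above every PBS sample, and the log2 fold change was 1.09 ± 0.15 (edgeR adjusted p = 0.0001). Counts at the 3′ end do not separate the transcript forms of Srebf1, and its 3′ end overlaps Rai1 on the opposite strand, which stood at -0.18 ± 0.15 (edgeR adjusted p = 0.49).

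Insig1, which encodes a retention protein that is itself induced by SREBP (chromosome 5, 28071363 to 28078662), had 10.2, 7.22, 8.40 and 8.28 CPM in CBE, against 13.5, 22.1, 16.3 and 28.5 CPM in PBS. The groups did not overlap, PBS samples were widely spread, and the log2 fold change was -1.26 ± 0.27 (edgeR adjusted p = 0.005). Stard4, which encodes a soluble carrier that moves sterols between membranes, had 4.31, 7.78, 9.45 and 8.94 CPM in CBE, against 10.8, 19.4, 23.0 and 20.6 CPM in PBS. All CBE samples were lower, here with the day 34 pair lowest, and the log2 fold change was -1.23 ± 0.31 (edgeR adjusted p = 0.014). Insig2, which encodes the other retention protein, lay at -0.21 ± 0.15 (edgeR adjusted p = 0.43). Scap had 133, 164, 173 and 164 CPM in CBE, against 179, 148, 155 and 149 CPM in PBS, with overlapping groups.

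**Figure D2:**
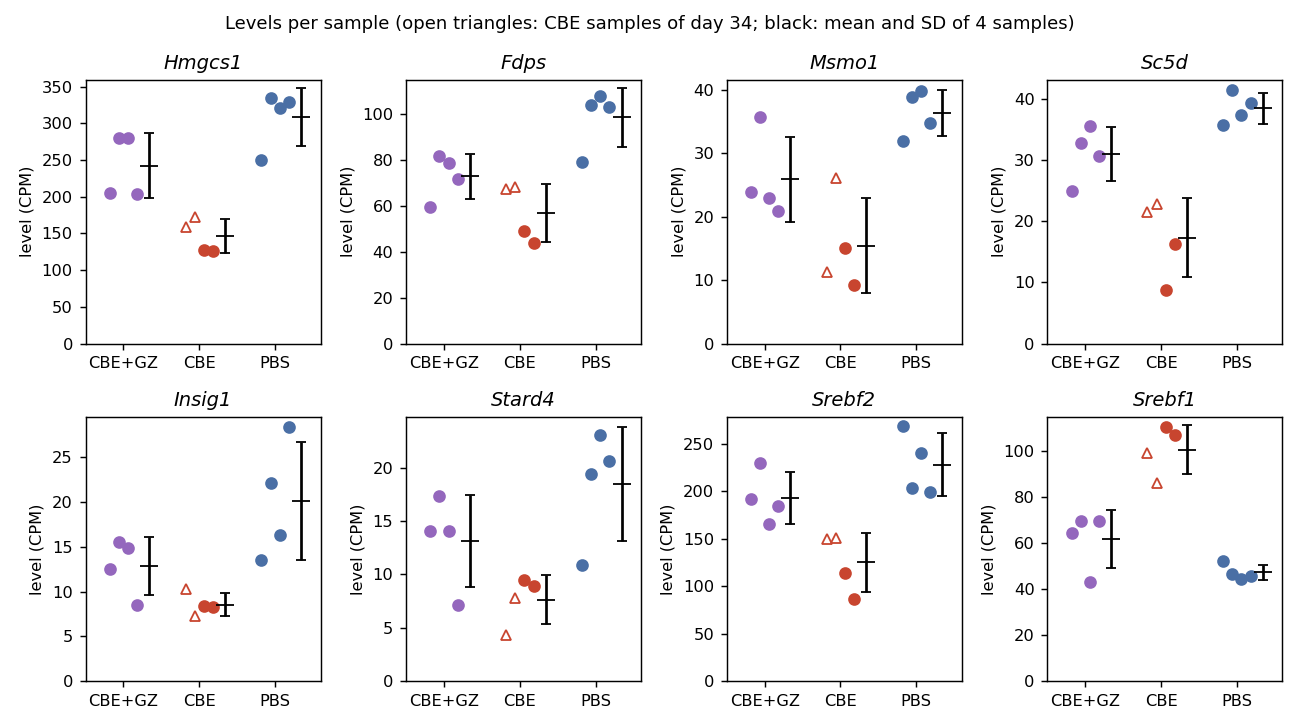
Level in CPM of 8 members in each sample, with the mean and SD of each group of 4 samples in black and day 34 CBE samples as open triangles. CBE lies below PBS in 7 panels and above it for Srebf1 (86.1 to 110.3 CPM in CBE, 44.4 to 52.1 CPM in PBS), and CBE+GZ-667161 lies mostly between them.

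Of the 9 fatty acid genes, 3 fell (Acss2, Scd2 and Fads1), none rose, and the fold changes of all 9 were below 0, at -0.83 to -0.26 on the log2 scale with a median of -0.35. Acss2, which encodes the synthetase that makes acetyl-CoA from acetate (chromosome 2, 155517948 to 155585724), had 13.5, 22.2, 24.5 and 11.3 CPM in CBE, against 29.4, 33.8, 26.0 and 36.6 CPM in PBS. The groups were close but apart, with a log2 fold change of -0.83 ± 0.23 (edgeR adjusted p = 0.027). Its neighbour Gss overlaps it on the opposite strand and stood at -0.19 ± 0.18 (edgeR adjusted p = 0.56). Scd2, the main stearoyl-CoA desaturase gene of brain (chromosome 19, 44293674 to 44306864), had 905, 828, 750.0 and 778 CPM in CBE, against 1053, 1017, 1029 and 1049 CPM in PBS. The PBS samples were tightly grouped and all CBE samples lay below them, at -0.35 ± 0.11 (edgeR adjusted p = 0.045). Fads1, which encodes a desaturase of polyunsaturated fatty acids (chromosome 19, 10182888 to 10196877), had 213, 217, 183 and 125 CPM in CBE, against 279, 317, 240.4 and 226 CPM in PBS. It stood at -0.53 ± 0.16 (edgeR adjusted p = 0.045), and CBE replicate 6 was the lowest sample.

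The fatty acid calls were near the threshold. With DESeq2 size factors or total counts in place of TMM scaling, Acss2 alone passed in edgeR. Acss2 lost its call without PBS replicate 2, 3 or 5 or CBE replicate 2 or 6 (edgeR adjusted p = 0.052 to 0.11). Scd2 lost it without any PBS replicate, CBE replicate 3, 4 or 6, or CBE+GZ-667161 number 4 (0.067 to 0.14), and Fads1 without PBS replicate 2, 3 or 4, CBE replicate 4 or 6 or any of CBE+GZ-667161 replicates 3, 4 and 5 (0.051 to 0.15). Of the rest, Fasn, which encodes fatty acid synthase, lay at 177 to 214 CPM in CBE and 222 to 246 CPM in PBS, without overlap, at -0.26 ± 0.11 (edgeR adjusted p = 0.17). Scd1, the desaturase gene best known from liver, was also apart, at 21.1 to 37.1 CPM in CBE and 43.2 to 50.5 CPM in PBS, with a log2 fold change of -0.67 ± 0.25 (edgeR adjusted p = 0.1). The elongase gene Elovl6 stood at -0.78 ± 0.28 (edgeR adjusted p = 0.087). Acly, Acaca and Fads2, which encode citrate lyase, acetyl-CoA carboxylase and a further desaturase, stood at -0.33 ± 0.15, -0.29 ± 0.19 and -0.32 ± 0.22 (edgeR adjusted p = 0.2, 0.37 and 0.4), with overlapping groups.

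In CBE the sterol branch (mevalonate and sterol enzymes, 17 tested) had 8 genes called lower and a median log2 fold change of -0.36, and the fatty acid branch 3 of 9 and a median of -0.35. The difference between the branches was not tested. Among the lower members the calls of Hmgcs1, Mvd, Fdps, Msmo1, Sc5d, Srebf2, Insig1 and Stard4 held whichever of the 12 libraries was left out, as did the rise of Srebf1. The number of lower members was 9 without PBS replicate 2, 3 or 5 or CBE replicate 4 or 6, and 8 with Xist level as a covariate. Without the 2 day 40 CBE samples it was 3, with Hmgcs1, Sc5d and Stard4 still lower and Srebf1 still higher. Without the 2 day 34 samples it was 12, with Elovl6 now lower at -1.13 and Lss now higher at 0.74 (edgeR adjusted p = 0.043 and 0.034). The shares of all genes called in these fits are not given here. These counts therefore have no background beside them and are not read as a trait of the members or of age.

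Beside these values, all 14 mature oligodendrocyte markers had a log2 fold change below 0 in CBE, with a median of -0.52, and 2 were called lower. Of 10 neuron markers 7 were called lower (median -0.56), of 9 microglia markers 6 were called higher (median 1.15), and of 10 astrocyte markers 4 were called higher (median 0.26). Of 4 blood markers none was called (median -0.71) and 3 had an unadjusted edgeR p under 0.05, as did 3133 of all 12623 genes. Of 7 endothelial markers 1 was called lower, of 6 oligodendrocyte precursor markers 1 was called higher, and of 3 choroid plexus markers none was called, with 0 at an unadjusted p under 0.05. The part of these shifts in the members' values was not tested.

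Related genes outside the list were described for comparison. Of 9 genes for the escort, cleavage and degradation of SREBP that were tested, none was called in CBE against PBS (median log2 fold change 0.05; 1 at an unadjusted edgeR p under 0.05), and of 10 genes that use mevalonate products for purposes other than sterols none was called (median -0.05; 0 at an unadjusted p under 0.05). A further list held 19 tested genes of fatty acid synthesis and elongation and of other lipid steps. From it Pcyt2, which encodes an enzyme of phosphatidylethanolamine synthesis and not of fatty acid synthesis, fell by 0.45 ± 0.14 on the log2 scale (edgeR adjusted p = 0.04). Tecr, which encodes a reductase of fatty acid elongation, fell by 0.38 ± 0.12 (edgeR adjusted p = 0.043). Among 10 genes of sterol removal and esterification, Ch25h, which encodes cholesterol 25-hydroxylase, rose by 3.09 ± 0.38 and Abca1, which encodes a cholesterol exporter, by 1.47 ± 0.31 (edgeR adjusted p = 3.4e-05 and 0.0051), and none fell. Ch25h and Abca1 are also expressed by microglia, whose markers were higher in CBE, and the part of this in their values was not tested.

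**Figure D3:**
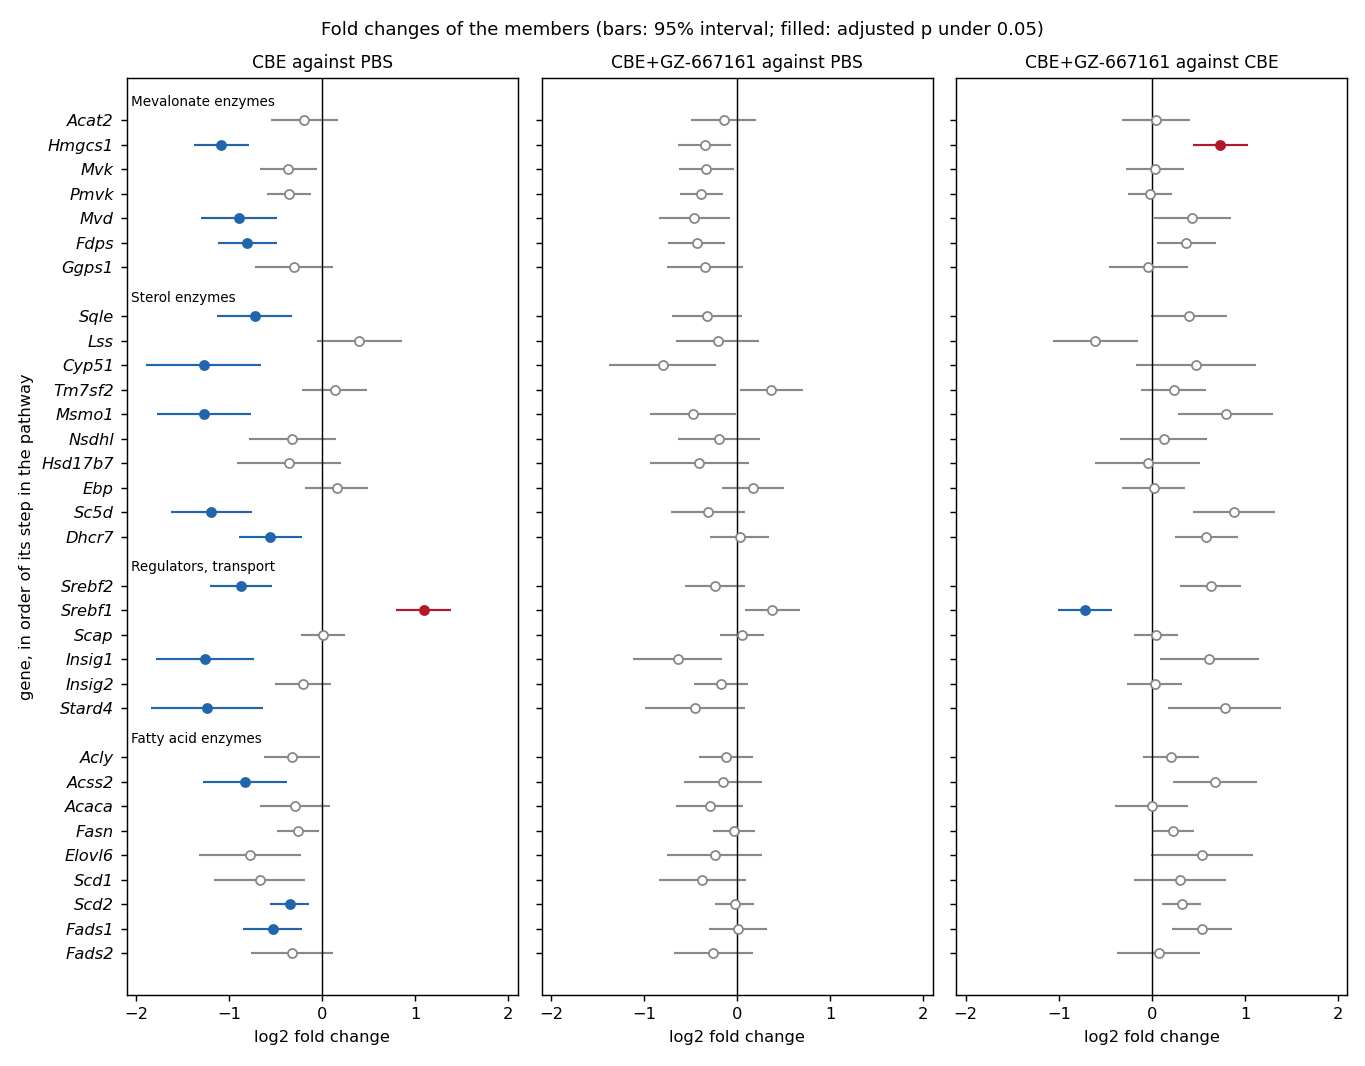
Log2 fold change of each tested member with its approximate 95% interval (normal limits on the SE, narrower than the edgeR test implies). The 3 panels show CBE over PBS on the left, CBE+GZ-667161 over PBS in the middle and CBE+GZ-667161 over CBE on the right. Points are filled where the edgeR adjusted p was under 0.05. On the left 14 members are filled and lower and Srebf1 filled and higher, in the middle none is filled, and on the right Hmgcs1 is filled and higher and Srebf1 filled and lower.

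The comparison of CBE+GZ-667161 with PBS asked what remained different when the synthase inhibitor was given with CBE. No member passed in edgeR, where 0.333% of all genes were called lower and 3.11% higher. At an unadjusted edgeR p under 0.05 there were 9, with Tm7sf2 and Srebf1 higher and the rest lower, beside 1658 of all 12623 genes. DESeq2 called 1 member (Pmvk, lower) and limma-voom 0. The median log2 fold change was -0.25 over the members, -0.33 over the sterol branch and -0.15 over the fatty acid branch, beside 0.00 over all genes. Hmgcs1 had 205, 280.5, 280.2 and 204 CPM in CBE+GZ-667161, and the highest pair exceeded PBS replicate 2, so that the groups overlapped. Its log2 fold change against PBS was -0.35 ± 0.15 (edgeR adjusted p = 0.3), with an approximate 95% interval of -0.63 to -0.06.

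In 3 of 32 members (Cyp51, Pmvk and Sc5d) every CBE+GZ-667161 sample lay below every PBS sample, as in 3.12% of all genes, and none of the 3 passed. Cyp51 lay at 8.91 to 16.1 CPM in the 4 CBE+GZ-667161 samples, under the lowest PBS sample at 16.4 CPM, with a log2 fold change of -0.80 ± 0.29 (edgeR adjusted p = 0.2). Pmvk had 55.7, 65.0, 56.3 and 59.7 CPM, under the lowest PBS sample at 71.6 CPM, at -0.38 ± 0.12 (edgeR adjusted p = 0.1). Sc5d had 25.0, 32.7, 35.6 and 30.7 CPM, just under the lowest PBS sample at 35.7 CPM, at -0.31 ± 0.20 (edgeR adjusted p = 0.59). Fdps, Mvd and Insig1 overlapped PBS and stood at -0.43 ± 0.16, -0.46 ± 0.19 and -0.64 ± 0.24 (edgeR adjusted p = 0.2, 0.3 and 0.22). Over the 9 fatty acid genes the log2 fold changes were -0.37 to 0.01. Scd2 stood at 1018 ± 146 CPM in CBE+GZ-667161 and 1037 ± 16.7 CPM in PBS and Fads1 at 267 ± 33.1 and 266 ± 41.1 CPM (mean ± SD, n = 4 each).

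For Srebf1 the CBE+GZ-667161 samples had 64.5, 69.5, 43.1 and 69.5 CPM, so 3 of 4 lay above and replicate 4 lay below every PBS sample. Replicate 4 was also the sample of this group with the lowest Xist, at 0.419 CPM. The log2 fold change against PBS was 0.38 ± 0.15 (edgeR adjusted p = 0.26), and without that replicate it was 0.53 and passed (edgeR adjusted p = 0.032). Srebf2 had 192, 230.4, 165 and 184 CPM in CBE+GZ-667161, overlapping PBS, at -0.24 ± 0.16 (edgeR adjusted p = 0.62). Stard4 had 14.1, 17.3, 14.0 and 7.13 CPM and overlapped PBS, at -0.45 ± 0.28 (edgeR adjusted p = 0.55). Beside these values, 6 of 9 microglia markers were called higher than in PBS (median log2 fold change 0.96), while of 14 mature oligodendrocyte markers none was called (median -0.12; 0 at an unadjusted edgeR p under 0.05). All 10 neuron markers had a log2 fold change below 0 (median -0.31), with none called and 5 at an unadjusted edgeR p under 0.05. The part of these shifts was not tested.

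The comparison of CBE+GZ-667161 with CBE asked what the synthase inhibitor changed in mice given CBE. It uses the same CBE samples as the comparison of CBE with PBS, so the 2 are not independent. Xist lay at 25.7, 13.9, 0.419 and 11.1 CPM in the CBE+GZ-667161 samples and at or under 0.555 CPM in all 4 CBE samples. Sex and treatment are thus partly confounded here. Hmgcs1 rose and Srebf1 fell, and no other of the 32 members passed in edgeR. At an unadjusted edgeR p under 0.05 there were 13 members, beside 2085 of all 12623 genes. Among all genes 0.444% were called higher and 0.832% lower. The median log2 fold change was 0.27 over the members, 0.23 over the sterol branch and 0.30 over the fatty acid branch, beside 0.01 over all genes, and 6 of the 32 members had a value below 0.

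Hmgcs1 averaged 242 ± 43.9 CPM in CBE+GZ-667161 and 146 ± 22.7 CPM in CBE (mean ± SD, n = 4 each), without overlap, with a log2 fold change of 0.74 ± 0.15 (edgeR adjusted p = 0.028). Srebf1 averaged 61.7 ± 12.6 CPM in CBE+GZ-667161 and 100.6 ± 10.8 CPM in CBE, also without overlap, at -0.72 ± 0.15 (edgeR adjusted p = 0.031). Both calls were lost when CBE replicate 4 or 6 was left out, or one of CBE+GZ-667161 replicates 3 and 4, where the edgeR adjusted p was 0.09 to 0.11 for Hmgcs1 and 0.056 to 0.096 for Srebf1, and that of Srebf1 also without CBE+GZ-667161 replicate 2 (0.059). Both were also lost with Xist level as a covariate (edgeR adjusted p = 0.083 for Hmgcs1 and 0.073 for Srebf1) and with the 2 groups fitted alone (0.056 and 0.065). Without CBE replicate 3, Msmo1, Sc5d and Srebf2 passed as well (edgeR adjusted p = 0.024, 0.037 and 0.047).

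In 5 of 32 members every CBE+GZ-667161 sample lay above every CBE sample, as in 4.11% of all genes: Hmgcs1, Sc5d, Dhcr7, Srebf2 and Fads1. Sc5d averaged 31.0 ± 4.47 CPM in CBE+GZ-667161 and 17.3 ± 6.38 CPM in CBE, at 0.88 ± 0.22 (edgeR adjusted p = 0.06; DESeq2 0.013; limma-voom 0.047). Srebf2 averaged 193 ± 27.4 CPM in CBE+GZ-667161 and 125 ± 31.1 CPM in CBE, at 0.63 ± 0.17 (edgeR adjusted p = 0.07; DESeq2 0.024). Dhcr7 and Fads1 stood at 0.58 ± 0.17 and 0.54 ± 0.16 (edgeR adjusted p = 0.1 and 0.11). The transporter gene Stard4 and the sterol gene Msmo1 had larger differences with wider errors, at 0.78 ± 0.31 and 0.79 ± 0.26 (edgeR adjusted p = 0.22 and 0.14). Acss2 and Scd2 stood at 0.68 ± 0.23 and 0.32 ± 0.11 (edgeR adjusted p = 0.15 and 0.14).

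Age bears on this comparison, since all CBE+GZ-667161 samples were of day 40 and 2 of the CBE samples were not. Against the day 40 CBE samples alone, 6 members were higher (Hmgcs1, Fdps, Msmo1, Sc5d, Srebf2 and Fads1) and 2 lower (Srebf1 and Lss, the cyclase gene, at -0.95 with an edgeR adjusted p of 0.024). Against the day 34 samples alone 0 passed in edgeR. The shares of all genes called with either pair alone are not given here, so these counts have no background beside them. Beside these values, 14 mature oligodendrocyte markers had a median log2 fold change of 0.50 in CBE+GZ-667161 against CBE, with none below 0 and 1 called higher. Of 10 astrocyte markers 3 were called lower (median -0.30). Among 10 neuron markers 1 was called higher and 1 had a value below 0 (median 0.21), and among 7 endothelial markers 1 was called higher (median 0.12). None of 9 microglia markers (median -0.22) or 4 blood markers (median 0.36) was called, with 3 and 1 at an unadjusted edgeR p under 0.05. The part of these shifts was not tested.

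**Figure D4:**
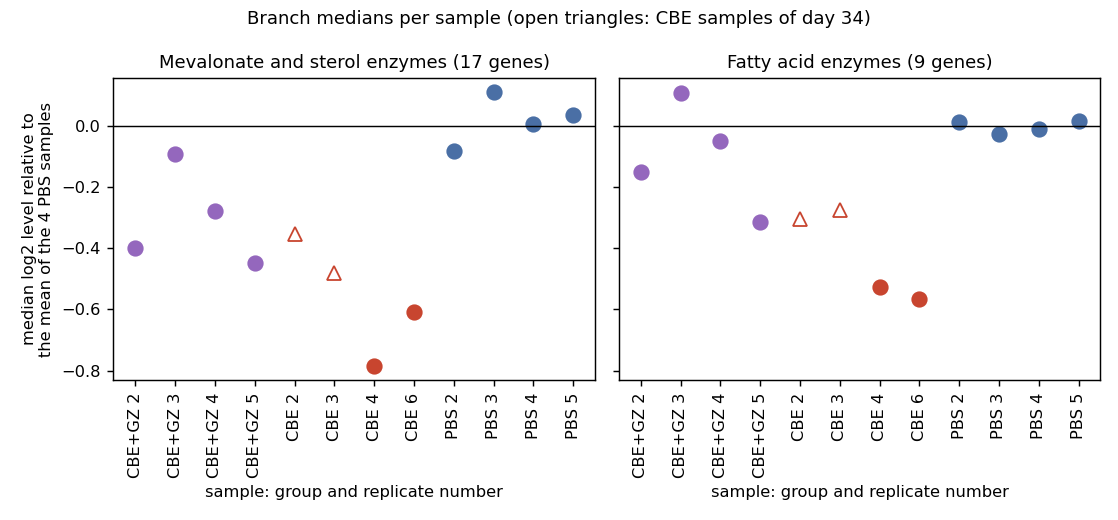
Median over the 17 mevalonate and sterol enzymes and over the 9 fatty acid enzymes of the log2 level relative to the mean of the 4 PBS samples, for each sample, with day 34 CBE samples as open triangles. The sterol medians are -0.45 to -0.09 in CBE+GZ-667161, -0.79 to -0.36 in CBE and -0.08 to 0.11 in PBS, and the fatty acid medians -0.31 to 0.11, -0.57 to -0.28 and -0.03 to 0.02.

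Within the samples, the median over the 17 mevalonate and sterol enzymes, as log2 relative to the mean of the PBS samples, was -0.40, -0.09, -0.28 and -0.45 in CBE+GZ-667161, -0.36, -0.48, -0.79 and -0.61 in CBE and -0.08, 0.11, 0.01 and 0.03 in PBS. CBE+GZ-667161 replicates 2 and 5 lay within the range of the day 34 CBE samples, and no CBE+GZ-667161 sample was as low as the day 40 CBE samples. Over the 9 fatty acid enzymes the medians were -0.15, 0.11, -0.05 and -0.31 in CBE+GZ-667161, -0.31, -0.28, -0.53 and -0.57 in CBE and 0.01, -0.03, -0.01 and 0.02 in PBS.

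Between the CBE samples of day 40 and day 34, with 2 samples each, no member passed in edgeR, DESeq2 or limma-voom, and 8 had an unadjusted p under 0.05 in edgeR. Of all 13372 genes tested in this fit, 0.389% were called lower and 0.224% higher, and 2021 had an unadjusted edgeR p under 0.05. The median log2 fold change was -0.17 over the members, -0.22 over the sterol branch, -0.16 over the fatty acid branch and -0.02 over all genes. In 10 of 32 members both day 40 samples were below both day 34 samples, as in 23.5% of all genes. These shares are near each other, so the count is not read as a trait of the members.

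Among these, Sc5d stood at -0.84 ± 0.28, Sqle at -0.71 ± 0.26 and Srebf2 at -0.61 ± 0.19 (edgeR adjusted p = 0.17, 0.21 and 0.15). Fdps and Hmgcs1 of the mevalonate route stood at -0.57 ± 0.20 and -0.40 ± 0.19 (edgeR adjusted p = 0.19 and 0.34), and Acaca, Elovl6 and Fads1 of the fatty acid branch at -0.62 ± 0.24, -0.70 ± 0.40 and -0.51 ± 0.20 (edgeR adjusted p = 0.25, 0.43 and 0.24). Lss and Acat2 went the other way, at 0.85 ± 0.26 and 0.61 ± 0.23 (edgeR adjusted p = 0.15 and 0.23), and Stard4 stood at 0.58 ± 0.49 (edgeR adjusted p = 0.61). Srebf1 was high on both days, at 108.6 ± 2.37 CPM on day 40 and 92.6 ± 9.24 CPM on day 34 (mean ± SD, n = 2 each), a log2 fold change of 0.20 ± 0.20 (edgeR adjusted p = 0.69). The median was -0.42 over 14 mature oligodendrocyte markers and -0.84 over 9 microglia markers, and their part in these values was not tested. The day 34 samples had the lowest depth, and there were no PBS samples of day 34, so age, disease stage and depth cannot be told apart here.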

How the data were processed

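Transcripts of 12 whole-brain samples were measured by a bulk form of MARS-seq, per the labels' protocols. The deposited count table holds raw whole-number counts per gene symbol. The tools named in the submitters' processing notes are HISAT 0.1.6, HTSeq, cutadapt and DESeq2, and the build is mm10. The strand setting of counting, the annotation and the handling of molecular identifiers are not given in the sources used here. A second deposited table gives the authors' own log2 fold changes and p-values, and was used only for the values credited to it. Another deposited table, of normalized values, was not used.

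Of 16505 entries, 23 carried a date in place of a symbol (0.266% to 0.347% of a library's counts) and were left out, leaving 16482 genes. The filter of edgeR on low counts (filterByExpr, minimum count 10, minimum total 15) left 12623. Counts were scaled by TMM and tested with edgeR 4.0.16 (glmQLFit, glmQLFTest) in one fit of 3 groups, or of 4 groups for the comparison of days, which tested 13372 genes. P-values were adjusted by Benjamini-Hochberg over all genes, with a threshold of 0.05. CPM are at the TMM-scaled library size, and SE is the absolute fold change over the square root of F. Replicates differed beyond counting noise (chi-square per degree of freedom 3.52 to 13.7). Alternatives were other scaling factors, no filter, DESeq2 1.42.0, limma-voom (limma 3.58.1), a block, Xist as a covariate, and fewer samples.

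The members, the related lists and the cell type markers were chosen with earlier results of these data known. Samples were listed one by one for called members, up to 10 with the smallest p in CBE against PBS plus called fatty acid genes and regulators. From each related list up to 3 called genes were named. Promoter windows are from RefSeq (GRCm38.p6) and gene positions from GENCODE for mm10. The steps were tested on simulated data. R 4.3.3, Python 3.11.15, pandas 2.3.3 and matplotlib 3.10.9 were used.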

Additional observations from a re-analysis of the deposited data

Results flagged for a closer look

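Each member's level was examined in each group of 4 samples for a lone sample whose gap to its nearest neighbour, as a share of the group's range, exceeded Dixon's 95% limit. Of 96 such groups 5 had one, and chance gives about 1 in 20. Hmgcs1 stood at 250 CPM in PBS replicate 2, with the next PBS sample at 321 CPM. Cyp51 stood at 35.7 CPM in PBS replicate 5, with the next at 17.2 CPM, and Elovl6 at 58.8 CPM in the same sample, with the next at 31.0 CPM. Ebp stood at 33.0 CPM in PBS replicate 3, with the next at 41.9 CPM. Fads2 stood at 11.7 CPM in CBE+GZ-667161 replicate 4, with the next at 10.4 CPM.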

How the results depend on the processing

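The calls of Hmgcs1, Sc5d and Srebf1 in CBE against PBS held under all 22 alternatives. The number of members lower in CBE (14 as reported) was 8 with a replicate block, 8 with Xist as a covariate, 3 without the day 40 CBE samples and 9 to 13 without each library in turn. For the sterol branch (8 as reported) these were 5, 5, 2 and 5 to 8, and for the fatty acid branch (3 as reported) 1, 1, 0 and 0 to 3, with 1 also under DESeq2 size factors and under total counts. Members lower in CBE+GZ-667161 against PBS (0 as reported) were 1 with DESeq2, and those higher against CBE (1 as reported) were 3 with DESeq2, 2 with limma-voom, 0 with the replicate block, with the 2 groups fitted alone, with Xist or without the day 40 CBE samples, 6 without the day 34 samples and 0 to 4 without each library. With the replicate block the calls of Hmgcs1 (higher) and Srebf1 (lower) in CBE+GZ-667161 against CBE were both lost (edgeR adjusted p = 0.061 and 0.081). In CBE against PBS 4 fold changes that had not passed changed sign: Acat2 to 0.06 and Tm7sf2 to -0.05 without the day 34 samples, and Lss to -0.11 and Acaca to 0.01 without the day 40 samples (edgeR adjusted p = 0.86, 0.90, 0.86 and 0.98). The cause was not tested. Shares of all genes called under these alternatives are not given here, so the counts have no background beside them. Replicate numbers did not pair the samples: over 10 same-numbered pairs the correlation of deviations was -0.081 to 0.216, with 1 above 0.1, and 2 samples correlated best with their own number. Genes of low count, such as Cyp51 and Stard4, had wide errors, and the day 34 samples the least depth.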

Other observations

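In the authors' deposited table of comparisons, 13 of 33 members had an adjusted p under 0.05 between CBE and PBS, 4 between CBE+GZ-667161 and CBE (Hmgcs1, Sc5d, Srebf2 and Srebf1) and 0 between CBE+GZ-667161 and PBS. The 13 were Hmgcs1, Mvd, Fdps, Sqle, Cyp51, Msmo1, Sc5d, Srebf2, Srebf1, Insig1, Stard4, Scd2 and Fads1. Over all its entries, 1610 had an adjusted p under 0.05 between CBE and PBS. There were 375 between CBE+GZ-667161 and CBE and 539 between CBE+GZ-667161 and PBS.

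In CBE+GZ-667161 against PBS, genes of sterol removal and esterification moved in both directions while no synthesis gene passed. Ch25h, which encodes cholesterol 25-hydroxylase, rose by 3.25 ± 0.37 and Mylip, which encodes a ligase that targets lipoprotein receptors for degradation, by 0.72 ± 0.17, and Cyp46a1, which encodes the neuronal cholesterol 24-hydroxylase, fell by 0.44 ± 0.11 on the log2 scale (edgeR adjusted p = 2.8e-05, 0.02 and 0.029). Microglia markers stayed higher than in PBS, with 6 of 9 called and a median log2 fold change of 0.96, and all 10 neuron markers were below 0 (median -0.31; none called in edgeR, 5 at an unadjusted p under 0.05). Their part in these values was not tested.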
